A study of Mus musculus with 24 samples.

Results

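Iron handling was followed through 8 genes that together cover its uptake, storage, release and export, in the skeletal muscle and heart of mice with pancreatic cancer. The genes were taken from the count tables by symbol. They and the lists of other genes below were chosen with earlier results of these data known. They were Tfrc and Slc11a2 (uptake), Fth1, Ftl1 and Ncoa4 (storage and its release), Slc40a1 (export) and Ireb2 and Aco1 (regulation), and all 8 were among the 14537 genes of each table and passed the filter on low counts in both tissues. All animals were male C57BL/6J mice, whose age the labels do not give. KPC+GnP mice carried pancreatic tumours grown from cells of the mouse line KPC32908, implanted orthotopically (in the pancreas), and were treated with gemcitabine plus nab-paclitaxel. KPC mice carried tumours of the same cells and were given vehicle, and control mice had sham surgery and no treatment, so that KPC against control covers the tumour and the vehicle together. The labels of the controls name the cell line too, although the series describes these mice as a sham group. Each group had 4 libraries per tissue, 24 in all, from 16 animals of which 8 gave both tissues, and all tumours came from 1 cell line. Within a tissue, a p-value here measures the spread between animals of 1 experiment. Between tissues, the main fit treats all libraries as independent, although 8 animals gave both tissues.

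Most cells take up iron by binding transferrin to transferrin receptor 1, the product of Tfrc, and bringing it into endosomes, where the iron is reduced and leaves through DMT1, the product of Slc11a2. Iron that is not used is held in ferritin, a shell of heavy (Fth1) and light (Ftl1) chains, which NCOA4 carries to the lysosome when iron is needed, while ferroportin (Slc40a1) is the known cellular iron exporter. IRP1 (Aco1) and IRP2 (Ireb2) bind a hairpin in RNA, the iron-responsive element (IRE), when iron is low. Bound in the 3′ UTR of Tfrc they stabilise the transcript, and bound in the 5′ UTR of ferritin and ferroportin transcripts they block translation, a step that RNA sequencing does not read.

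The hairpins are shown because IRPs bind such elements, and the strict search below found them in 4 members, Tfrc, Fth1, Ftl1 and Slc40a1. In the annotated UTRs of the mouse genome GRCm38, read on the strand of the transcript, windows of 27 bases were searched for the loop letters CAGTGN with 5 paired bases on each side (G with T allowed), an unpaired C before them, and at least 3 of 5 pairs in the lower stem. Tfrc held 4 such windows in its 3′ UTR on chromosome 16, at chr16:32631220-32631246, chr16:32631599-32631625, chr16:32631664-32631690 and chr16:32631711-32631737 (plus strand). Fth1 held 1 in its 5′ UTR at chr19:9982733-9982759 (plus strand), Ftl1 1 in its 5′ UTR at chr7:45459780-45459806 (minus strand) and Slc40a1 1 in its 5′ UTR at chr1:45925466-45925492 (minus strand). They are written 5′ to 3′, and the capitals mark the loop, positions 12 to 17 of the window.
Tfrc 3′ UTR, first: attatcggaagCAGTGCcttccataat
Tfrc 3′ UTR, second: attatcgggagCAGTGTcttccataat
Tfrc 3′ UTR, next: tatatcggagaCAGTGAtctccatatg
Tfrc 3′ UTR, last: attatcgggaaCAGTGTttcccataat
Fth1 5′ UTR: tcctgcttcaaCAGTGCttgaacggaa
Ftl1 5′ UTR: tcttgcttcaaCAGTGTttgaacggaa
Slc40a1 5′ UTR: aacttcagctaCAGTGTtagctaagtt
Of the genes in the tables with an annotated 5′ UTR, 8 of 13391 (0.0597%) held such a window there, and 30 of 13437 (0.223%) held one in the 3′ UTR. A match is a description of the letters, and no window in the UTRs of Slc11a2, Ireb2, Aco1 or Ncoa4 says only that these letters were not found there. An element with an unpaired base in the upper stem would be missed. The search therefore does not tell whether IRPs bind the transcripts of Slc11a2 or the other genes without a match.

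Library totals ran between 18285396 and 27382432 counts for muscle, where 12760 genes were tested, and between 11020931 and 20969551 counts for heart, where 13846 were. The tissue labels fitted their markers, with 10 skeletal muscle fibre genes summing to 161200 to 262800 CPM (counts relative to the size of the library, which was scaled by TMM) in muscle and 868.1 to 2858 CPM in heart, and 10 cardiomyocyte genes to 67.9 to 588 CPM in muscle and 33580 to 80520 CPM in heart. Animal 141, which gave KPC muscle library 1 and KPC heart library 4, stood apart from its group in several genes below, so the main results on the 8 genes and the counts of the gene lists that rest on the KPC groups are also given without it. Fth1 and Ftl1 have near-identical pseudogene copies (2 and 3 annotated by name), and Ftl1 overlaps Gm10252, and Slc11a2 overlaps Gm5475, on the opposite strand. The use of strand in counting is not given, so reads of these copies and partners cannot be told apart from those of the genes. In bulk tissue, fewer cells of a type and less RNA per cell cannot be told apart.

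In control animals ferritin dominated. On the authors' FPKM scale, which divides by gene length, Fth1 averaged 1110 ± 86.7 FPKM in control muscle and 824 ± 84.3 FPKM in control heart (SD, n = 4 each), above 99.7% of the genes tested in each tissue. Ftl1 followed with 166 ± 25.3 FPKM in control muscle and 199 ± 26.6 FPKM in control heart. Tfrc came next, with 59.2 ± 17.9 FPKM in control muscle and 19.7 ± 2.81 FPKM in control heart. In muscle, Slc40a1 at 17.2 and Ireb2 at 10.9 FPKM came next without overlapping their neighbours, and Ncoa4 (7.40) and Slc11a2 (7.14) did not differ beyond their spread, nor did Slc11a2 and Aco1 (5.79). In heart, Ncoa4, Aco1, Ireb2 and Slc40a1 lay between 8.42 and 9.09 FPKM with overlapping libraries, and Slc11a2 was last at 4.33 FPKM.

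Between the control tissues, the Tfrc, Slc11a2 and Slc40a1 transcripts were higher in muscle. In a joint edgeR fit of all 24 libraries, 6 of the 8 genes differed, where 59.5% of all genes tested did (29.2% higher and 30.3% lower in muscle). The libraries of the 2 tissues did not overlap in 7 of the 8, all but Ftl1, and in 63.2% of all genes. On the log2 scale, muscle over heart, the differences were 1.59 for Tfrc (SE 0.52, edgeR adjusted p = 0.0125), 1.03 for Slc40a1 (SE 0.15, 5.78e-06), 0.72 for Slc11a2 (SE 0.13, 8.27e-05), 0.43 for Fth1 (SE 0.14, 0.00998) and 0.32 for Ireb2 (SE 0.12, 0.0237). Aco1 was the 1 gene lower in muscle, with a log2 change of -0.64 (SE 0.14, 0.000417), and Ftl1 (-0.27) and Ncoa4 (-0.30) did not pass. Scaled by library totals, which moved the median of all genes to -0.70, Fth1 (-0.21) and Ireb2 (-0.32) turned negative without a call and Tfrc and Slc11a2 lost theirs. With the animal as a replicate block in the 16 libraries of paired animals, Fth1 (edgeR adjusted p = 0.154) and Ireb2 (0.0818) lost theirs. Ireb2 also lost its call without heart control 1 or 3 or muscle control 1 (adjusted p up to 0.0824). Among other genes of these roles, more were lower than higher in muscle. Of 11 genes of iron import and reduction 0 were higher and 4 lower (Cybrd1 at -3.42, Slc39a8 at -3.33, Slc46a1 at -1.65 and Slc39a14), where 29.2% of all genes were higher and 30.3% lower. Of 11 genes of export and systemic control 7 were lower, led by the ferroxidase Cp at -3.16, and 2 higher, Hfe2 at 2.00 and Fam132b at 2.97. All these differences rest on the joint scaling, whereas the CPM given below were scaled within each tissue and are not compared between tissues.

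In muscle of KPC mice the transferrin receptor transcript was 7.40-fold lower than in controls, the DMT1 transcript fell too, and the ferroportin and ferritin light chain transcripts rose. KPC+GnP muscle had more of the receptor transcript than KPC muscle and less of ferroportin and both ferritin chains, and did not pass against control in any of the 8 genes. Of the 8 genes, 4 passed in KPC against control muscle (2 higher, 2 lower), where 49.7% of all genes tested passed (27.5% higher, 22.1% lower). In KPC+GnP against KPC muscle, 4 passed (1 higher, 3 lower), where 49.8% of all genes did (23.1% higher, 26.7% lower). The share of members called was thus near that of all genes in both comparisons. In CPM, libraries of KPC and control muscle did not overlap for 3 of the 8 genes (Tfrc, Fth1 and Slc40a1) and 37.2% of all genes, and those of KPC+GnP and KPC muscle for 2 (Tfrc and Fth1) and 33.6%. Against control, 0 of the 8 passed in KPC+GnP muscle and 0.00% of all genes did, although 1 member (Slc11a2) and 413 genes had an unadjusted edgeR p under 0.05. DESeq2 and limma also called 0 genes there, the libraries of all 8 genes overlapped, and 4.40% of all genes did not overlap. KPC+GnP against KPC and KPC against control share the KPC libraries, so a KPC library that stands apart moves both in opposite directions.

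**Figure D1:**
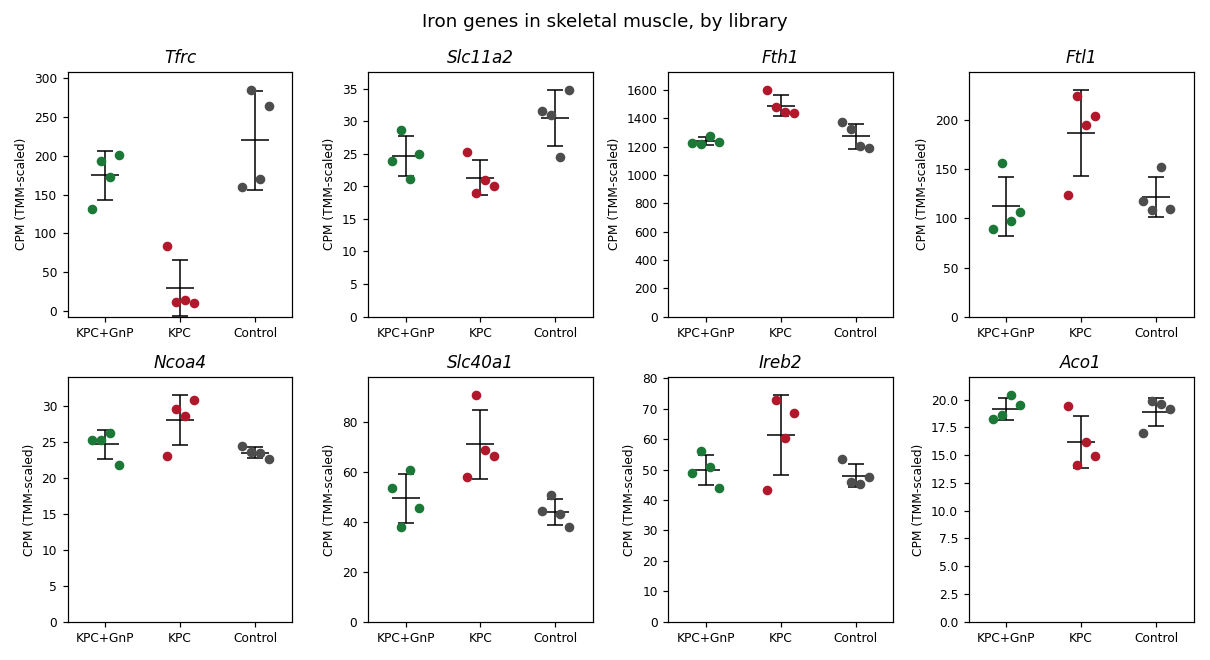
CPM (scaled by TMM) of the 8 iron genes in skeletal muscle, 1 point per library, by group (KPC+GnP, KPC, Control), with mean and SD (n = 4). Tfrc of 3 KPC libraries lies between 9.92 and 13.5 CPM and of the other KPC library at 84.1 CPM, below all KPC+GnP and control libraries.

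Tfrc had 131, 194, 173 and 201 CPM in KPC+GnP muscle. It had 84.1, 11.6, 13.5 and 9.92 CPM in KPC muscle and 160.2, 286, 170.2 and 265 CPM in control muscle. The KPC libraries lay below all others, and within them the library of animal 141 was far above the other 3, while KPC+GnP and control muscle overlapped. Tfrc fell 7.40-fold in KPC against control muscle, a log2 change of -2.89 (SE 0.60, edgeR adjusted p = 0.00235). By size of change it ranked 116 among the 12760 genes tested. It was 5.88-fold higher in KPC+GnP than in KPC muscle, a log2 change of 2.55 (SE 0.60, edgeR adjusted p = 0.00428). Without the library of animal 141 these log2 changes were -4.25 and 3.90. Against control, KPC+GnP muscle differed by a log2 change of -0.33 (SE 0.56, edgeR adjusted p = 0.9998).

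Slc11a2, which moves iron out of the endosome that the receptor fills, had 23.8, 28.7, 21.2 and 24.9 CPM in KPC+GnP muscle. In KPC muscle it had 25.3, 19.0, 21.0 and 20.0 CPM, against 31.5, 30.9, 24.5 and 34.8 CPM in control muscle. The KPC and control libraries overlapped through the library of animal 141 and 1 low control. Its log2 change of -0.51 in KPC against control muscle passed (SE 0.14, edgeR adjusted p = 0.00823). KPC+GnP muscle lay between, 0.21 above KPC (SE 0.14, edgeR adjusted p = 0.212) and at -0.30 from control (SE 0.14, edgeR adjusted p = 0.9998). Under scaling by library totals the gain in KPC+GnP over KPC muscle passed (0.46, edgeR adjusted p = 0.00962).

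The ferritin chains moved less than the receptor and the other way. Ftl1 had 89.4, 156, 97.6 and 107 CPM in KPC+GnP muscle, 124, 225, 195 and 205 CPM in KPC muscle and 118, 108, 152 and 110.04 CPM in control muscle. The library of animal 141 was the only KPC library within the control range. Ftl1 rose in KPC against control muscle, with a log2 change of 0.61 (SE 0.21, edgeR adjusted p = 0.0265). In KPC+GnP it was lower than in KPC muscle, with a log2 change of -0.73 (SE 0.21, edgeR adjusted p = 0.0117). The first call was lost in 6 of the 12 fits that each left out 1 library (control 1, 2 or 4 or KPC 2, 3 or 4), with adjusted p up to 0.0713 and log2 changes of 0.52 or more, and both calls were lost when libraries were scaled by their totals (0.108 and 0.0838).

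Fth1 had 1228, 1221, 1278 and 1236 CPM in KPC+GnP muscle, 1601, 1481, 1447 and 1437 CPM in KPC muscle and 1373, 1325, 1202 and 1192 CPM in control muscle. All KPC libraries lay above all libraries of both other groups in CPM. On the authors' FPKM scale, KPC (1179 to 1377) and control muscle (1026 to 1199) overlapped. Its log2 change was 0.23 in KPC against control muscle (SE 0.10) and did not pass in edgeR (adjusted p = 0.071) but did in DESeq2 (adjusted p = 0.0133). Between KPC+GnP and KPC muscle it was -0.27 (SE 0.10) and passed (edgeR adjusted p = 0.0403), a call lost in 10 of the 12 fits without 1 library (all but control 3 and KPC 1, with adjusted p up to 0.0768), in limma on log2 FPKM (0.113) and with scaling by library totals (-0.01, 0.906). Ncoa4, the receptor that brings ferritin to the lysosome, ranged from 21.7 to 26.3 CPM in KPC+GnP muscle, 23.0 to 30.8 CPM in KPC muscle and 22.6 to 24.5 CPM in control muscle. Its log2 change in KPC against control muscle, 0.25, did not pass (edgeR adjusted p = 0.0655).

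Slc40a1, the exporter, had 53.4, 37.7, 60.7 and 45.4 CPM in KPC+GnP muscle. In KPC muscle it had 58.0, 90.5, 68.8 and 66.1 CPM, against 44.4, 50.5, 43.2 and 37.9 CPM in control muscle. KPC and control libraries did not overlap, while 1 KPC+GnP library reached into the KPC range. The exporter rose 1.61-fold in KPC against control muscle, a log2 change of 0.69 (SE 0.17, edgeR adjusted p = 0.0051). It was lower in KPC+GnP than in KPC muscle, with a log2 change of -0.52 (SE 0.17, edgeR adjusted p = 0.0199), a call lost without KPC 2 (-0.39, 0.0595), KPC+GnP 2 (-0.42, 0.0546) or KPC+GnP 4 (-0.49, 0.0552) and with library totals (0.195). Macrophages, which use ferroportin to return iron from red cells, had 12 markers that summed to 74.8 to 281 CPM in KPC+GnP muscle, 63.4 to 87.2 CPM in KPC muscle and 83.0 to 177 CPM in control muscle. Of these markers none was higher and 3 were lower in KPC against control muscle, where 27.5% of all genes were higher and 22.1% lower. In KPC+GnP against KPC muscle 7 of them were higher and none lower, where 23.1% of all genes were higher and 26.7% lower. Without animal 141, 0 were higher and 4 lower in KPC against control muscle, where 31.5% and 30.4% of all genes were. Treated against KPC muscle then had 7 higher and 0 lower, where 31.0% and 31.4% of all genes were. The part of macrophages in the changes of Slc40a1 was not tested.

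Neither regulator passed in muscle with all libraries. Ireb2, whose product is removed by the proteasome when iron is plentiful, ranged from 44.1 to 56.0 CPM in KPC+GnP muscle, 43.2 to 73.0 CPM in KPC muscle and 45.3 to 53.5 CPM in control muscle. Aco1, whose product is either an aconitase or an RNA-binding protein, ranged from 18.2 to 20.4 CPM in KPC+GnP muscle, 14.1 to 19.4 CPM in KPC muscle and 17.03 to 19.9 CPM in control muscle. In KPC against control muscle their log2 changes were 0.35 (edgeR adjusted p = 0.0627) and -0.23 (0.113). In both genes the KPC library of animal 141 was the one nearest to the other groups or beyond them. Without that library 7 of 8 genes passed in KPC against control muscle, Fth1 (0.114) being the exception, where 61.9% of all genes then passed, with Ireb2 at 0.47 (edgeR adjusted p = 0.00135), Aco1 at -0.34 (0.00734) and Ncoa4 at 0.32 (0.00666). Of the 8 genes 7 then passed in KPC+GnP against KPC muscle too, all but Slc11a2 (0.30, edgeR adjusted p = 0.0607), where 62.4% of all genes did. Scaling by library totals moved the median of all genes to -0.17 in KPC against control and 0.27 in KPC+GnP against KPC muscle.

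In heart of KPC mice the transferrin receptor transcript was also lower, and both ferritin chains were higher. In treated mice the heavy chain was lower than in KPC mice and overlapped the controls, while the light chain stood near its level in KPC mice. Of the 8 genes 3 passed in KPC against control heart (2 higher, 1 lower), where 9.34% of all genes tested passed (4.95% higher, 4.38% lower). The KPC and control libraries did not overlap for 3 genes (Tfrc, Fth1 and Slc11a2) and 14.4% of all genes. Between KPC+GnP and KPC heart 1 gene passed, Fth1, which was lower and was also the 1 gene without overlap, where 1.55% of all genes passed (1.13% higher, 0.412% lower) and 8.10% did not overlap. By edgeR 0 of the 8 passed in KPC+GnP against control heart, where 1.23% of all genes did (0.816% higher, 0.412% lower), 2 members and 2753 genes had an unadjusted p under 0.05, and DESeq2 called 1 member, Ftl1. Tfrc and Ftl1 did not overlap there, nor did 15.9% of all genes. Without KPC library 4, of animal 141, 5 of the 8 passed in KPC against control heart, where 25.4% of all genes then did. The heart calls were near the threshold: with only the 8 libraries of the groups compared, 0 members passed in KPC against control and 0 in KPC+GnP against KPC.

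**Figure D2:**
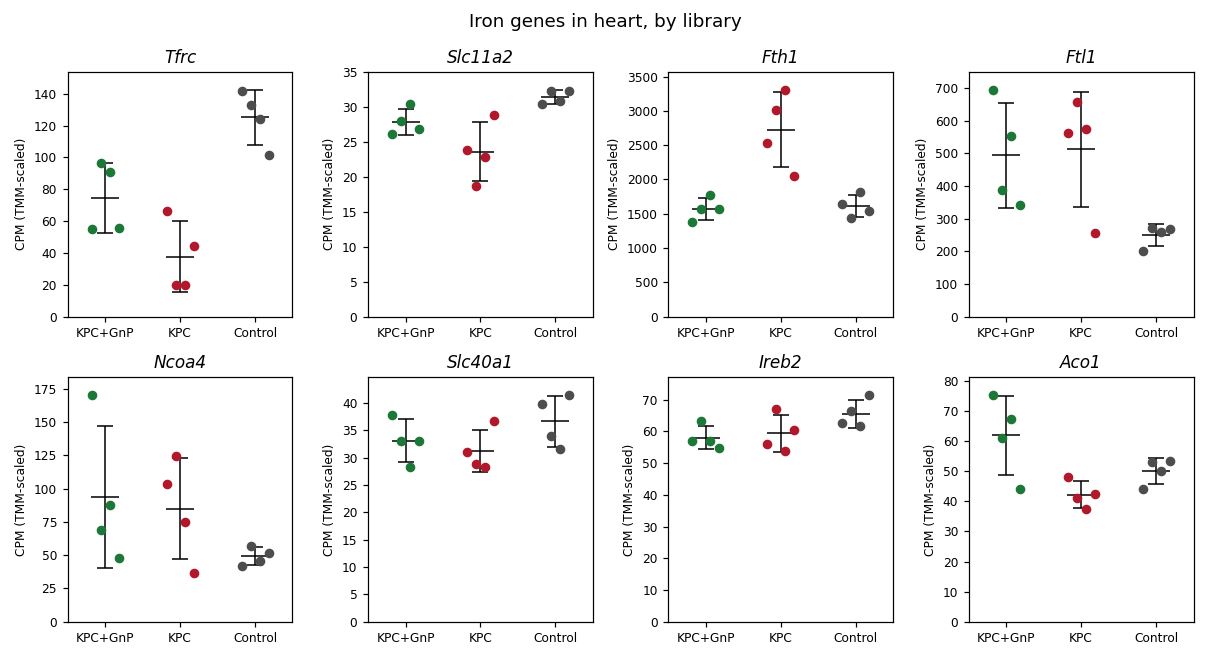
CPM (scaled by TMM) of the 8 iron genes in heart, 1 point per library, by group (KPC+GnP, KPC, Control), with mean and SD (n = 4). Fth1 of all 4 KPC libraries lies above both other groups, and Ftl1 of 3 KPC libraries and all 4 KPC+GnP libraries lies above all controls.

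Tfrc had 54.9, 96.5, 90.7 and 55.8 CPM in KPC+GnP heart, 66.2, 19.8, 19.7 and 44.4 CPM in KPC heart and 142, 133, 124 and 102 CPM in control heart. Both tumour-bearing groups lay wholly below the controls, and the treated libraries overlapped those of KPC heart. Tfrc fell 3.32-fold in KPC against control heart, a log2 change of -1.73 (SE 0.37, edgeR adjusted p = 0.0221). This call was lost without control 1, 3 or 4 or KPC 3 (log2 changes of -1.67, -1.74, -1.82 and -1.52, adjusted p up to 0.0661) and in the fit of the 8 libraries alone (0.0581). The log2 change of KPC+GnP heart was 0.99 against KPC (SE 0.36, edgeR adjusted p = 0.153) and -0.75 against control (SE 0.36, 0.268), and neither passed, although the first did without KPC 1 (1.41, 0.0487). Slc11a2 ranged from 26.2 to 30.5 CPM in KPC+GnP heart, 18.7 to 28.9 CPM in KPC heart and 30.4 to 32.3 CPM in control heart. KPC and control did not overlap, yet the log2 change of -0.41 (SE 0.12) missed the threshold in edgeR (adjusted p = 0.0512) and passed in DESeq2 (0.019).

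Fth1 had 1384, 1563, 1778 and 1573 CPM in KPC+GnP heart, 2539, 3013, 3306 and 2054 CPM in KPC heart and 1649, 1440.1, 1819 and 1538 CPM in control heart. Every KPC library lay above every other, and the KPC+GnP and control libraries overlapped. The heavy chain rose 1.69-fold in KPC against control heart, a log2 change of 0.76 (SE 0.16, edgeR adjusted p = 0.024). It was 1.73-fold lower in KPC+GnP than in KPC heart, a log2 change of -0.79 (SE 0.16, edgeR adjusted p = 0.0393), and KPC+GnP stood at -0.03 from control (SE 0.16, 0.927). Left-out libraries ended the first call in 5 of 12 fits (any control or KPC 3) and the second in 9 of 12 (all but KPC 1, KPC 4 and KPC+GnP 3), with adjusted p up to 0.0748 and 0.134. Over those fits the log2 changes stayed between 0.65 and 0.87, and between -0.91 and -0.69.

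Ftl1 had 695, 387, 554 and 341 CPM in KPC+GnP heart. It had 564, 657, 574 and 256 CPM in KPC heart and 200.1, 273, 258 and 268 CPM in control heart. All KPC+GnP libraries lay above all controls, and so did 3 of the 4 KPC libraries, the other being that of animal 141. The light chain rose 2.05-fold in KPC against control heart, a log2 change of 1.04 (SE 0.29, edgeR adjusted p = 0.0442), a call lost in 9 of 12 fits without 1 library (all but KPC 4, KPC+GnP 1 and KPC+GnP 4, with log2 changes of 0.92 or more and adjusted p up to 0.115). Against control, the log2 change in KPC+GnP heart was 0.98 (SE 0.29) and did not pass in edgeR (adjusted p = 0.096) but did in DESeq2 (0.0163) and without KPC 4 (0.0328). The log2 change between KPC+GnP and KPC heart was -0.05 (SE 0.28, edgeR adjusted p = 0.938).

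In heart the 2 chains stood in a different proportion in treated mice. The ratio of Fth1 to Ftl1 FPKM was 1.28 to 2.96 in KPC+GnP heart, 2.89 to 5.16 in KPC heart and 3.39 to 5.29 in control heart, so that no treated heart reached the control range. In muscle the ratio was 5.02 to 8.81 in KPC+GnP, 4.23 to 8.30 in KPC and 5.06 to 7.86 in control animals, and the groups overlapped. These ratios are descriptions and were not tested.

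Ncoa4 had 170.0, 68.9, 87.8 and 47.97 CPM in KPC+GnP heart, 103, 124, 74.6 and 36.8 CPM in KPC heart and 41.9, 57.1, 45.9 and 51.8 CPM in control heart. The groups overlapped, with the highest library in the treated group and the lowest that of animal 141, and neither the change in KPC (0.79, SE 0.39, edgeR adjusted p = 0.194) nor that in KPC+GnP (0.93, SE 0.39, 0.219) against control passed. Without animal 141 the first was 1.03 and passed (0.0474). Slc40a1 ranged from 28.3 to 37.9 CPM in KPC+GnP heart, 28.4 to 36.8 CPM in KPC heart and 31.6 to 41.4 CPM in control heart, with overlap throughout. Ireb2 (54.8 to 63.3, 53.9 to 67.1 and 61.6 to 71.4 CPM in KPC+GnP, KPC and control heart) overlapped too. Aco1 had 44.2 to 75.2 CPM in KPC+GnP heart, 37.3 to 48.1 CPM in KPC heart and 44.2 to 53.4 CPM in control heart. Its log2 change of 0.55 in KPC+GnP against KPC heart missed the threshold in edgeR (SE 0.15, adjusted p = 0.0735) and passed in DESeq2 (0.0195) and without KPC+GnP 4 (0.67, 0.0155).

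**Figure D3:**
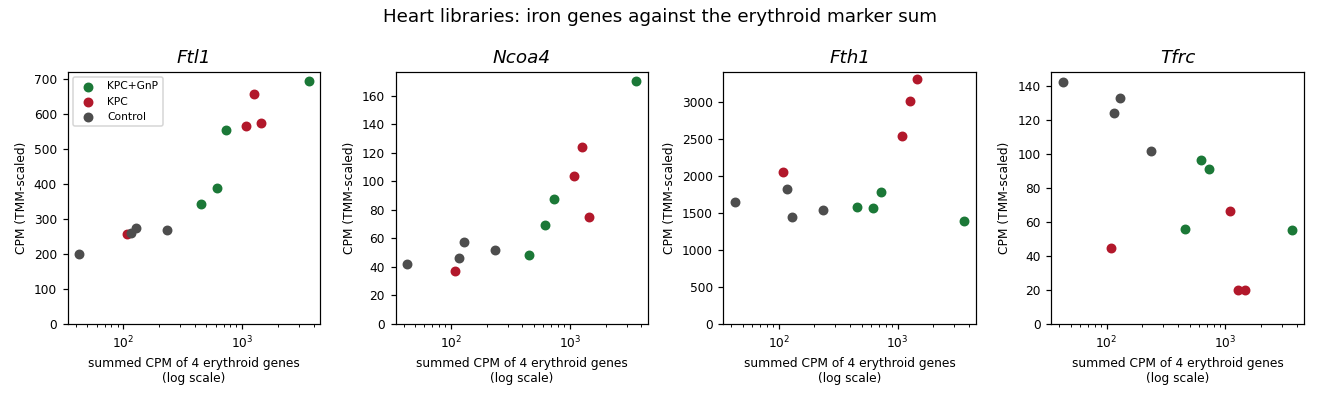
CPM (scaled by TMM) of Ftl1, Ncoa4, Fth1 and Tfrc in the 12 heart libraries against the summed CPM of 4 erythroid genes (log axis), coloured by group (KPC+GnP, KPC, Control). The treated library with the highest erythroid sum, 3630 CPM, has the highest Ftl1 (695 CPM) and Ncoa4 (170.0 CPM) and the lowest Fth1 (1384 CPM). The KPC library with the highest sum, 1449 CPM, has neither the highest Ftl1 nor the highest Ncoa4 of the KPC libraries.

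Markers of blood and immune cells were higher in KPC heart, where the ferritin genes were higher. Of 11 erythroid markers 4 were in the tables, among them Alas2 and Slc4a1, and the haemoglobin genes were not analysed here. Their sum was 454 to 3630 CPM in KPC+GnP heart, 108.5 to 1449 CPM in KPC heart and 42.9 to 236 CPM in control heart. The KPC library of animal 141 had the 108.5 CPM, and the other 3 KPC libraries had 1086 to 1449 CPM. Of these 4 genes 3 were higher in KPC against control heart, where 4.95% of all genes tested were higher. The 12 macrophage markers summed to 443 to 782 CPM, 460 to 2545 CPM and 368 to 638 CPM in KPC+GnP, KPC and control heart, and 7 of them were higher in KPC against control. Neutrophil markers (8 of 9 in the tables) summed to 7.51 to 31.6 CPM in KPC+GnP heart, 21.4 to 290.7 CPM in KPC heart and 3.119 to 9.92 CPM in control heart, with 7 of 7 tested higher in KPC. Without animal 141, 4 of 4 erythroid, 10 of 12 macrophage and 8 of 8 neutrophil markers were higher in KPC against control heart. Of all genes 13.6% were then higher. None of these markers in the tables was at 0 in all libraries of a heart group. The 10 cardiomyocyte genes summed to 54560 to 77310 CPM in KPC+GnP heart, to 51600, 33580, 47910 and 75320 CPM in KPC heart and to 59240 to 80520 CPM in control heart. Ryr2, the calcium release channel of the heart, was the 1 of these 10 that fell in KPC against control heart (-0.87, edgeR adjusted p = 0.0484), where 4.38% of all genes were lower. Without animal 141, 4 of the 10 were lower, where 11.7% of all genes were. The part of all these markers in the changes of Ftl1, Fth1, Ncoa4 and Tfrc in heart was not tested. In muscle the erythroid sum was 7.17 to 12.2 CPM in KPC+GnP, 3.56 to 15.4 CPM in KPC and 2.82 to 3.41 CPM in control animals. In KPC against control muscle 3 of 3 tested erythroid genes were higher, where 27.5% of all genes were. Without animal 141 these were 3 of 3 and 31.5%. The neutrophil sum in muscle was at most 5.42 CPM, with Camp at 0 in KPC and Ngp and Camp at 0 in control muscle. The part of the erythroid genes in the muscle changes was not tested.

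**Figure D4:**
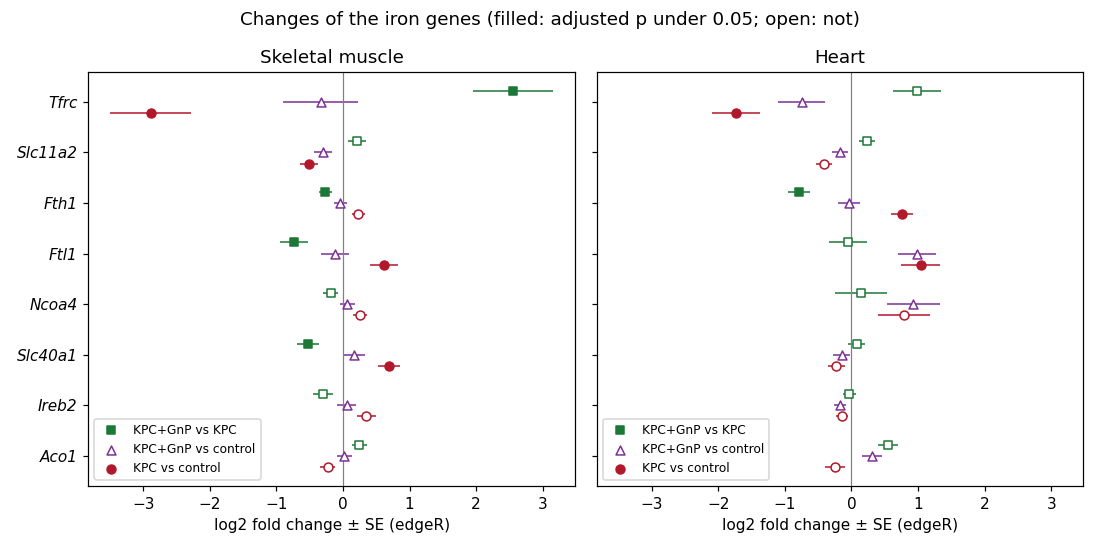
Log2 fold changes with SE (edgeR) of the 8 iron genes in skeletal muscle (left) and heart (right) for KPC+GnP vs KPC, KPC+GnP vs control and KPC vs control, filled where the adjusted p was under 0.05. Tfrc has the largest change in both tissues in KPC vs control, at -2.89 in muscle and -1.73 in heart.

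The tissues were compared by testing the difference of their changes. For KPC against control, 2 of the 8 genes differed between muscle and heart, where 25.8% of all genes did (12.4% higher and 13.4% lower in muscle). Slc40a1, which rose in muscle and did not pass in heart (-0.23), differed in its log2 change by 0.84 (SE 0.22, edgeR adjusted p = 0.00853), which passed in all 16 fits without 1 library. For Fth1 the change in muscle was below that in heart, a difference of -0.60 (SE 0.19, edgeR adjusted p = 0.027), lost without heart control 4 or KPC 3, or muscle control 1, KPC 3 or KPC 4 (adjusted p up to 0.0581). The difference for Tfrc was -1.21 (SE 0.73) and did not pass (edgeR adjusted p = 0.225), but without animal 141 it was -2.52 and passed (0.000441), so the size of the difference in the receptor rests on that animal. For KPC+GnP against KPC, 1 gene differed, where 25.7% of all genes did (12.5% higher, 13.2% lower), namely Fth1 by 0.56 (SE 0.19, edgeR adjusted p = 0.0361), lost in 11 of 16 fits (all but heart KPC 1, KPC 4 and KPC+GnP 3 and muscle KPC 1 and KPC+GnP 2, with adjusted p up to 0.0783). The difference for Slc40a1 there was -0.56 (edgeR adjusted p = 0.0591) and passed without heart KPC 4 or KPC+GnP 3, or muscle KPC 1 or KPC+GnP 3 (adjusted p up to 0.0475). With the animal as a replicate block, in the 16 libraries of the 8 animals that gave both tissues, 0 of the 8 passed in either comparison (Slc40a1 0.74, edgeR adjusted p = 0.16), and the same 16 libraries without the block gave 0 as well.

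Around the receptor, other uptake genes were lower in KPC muscle and a different importer was far higher. Of 11 tested genes of iron import and reduction, 7 were lower and 1 higher in KPC against control muscle, with a median log2 change of -0.87 against -0.00 for all genes, of which 22.1% were lower and 27.5% higher. Slc39a14 (ZIP14, which imports iron not bound to transferrin) rose by 3.95 (SE 0.71, edgeR adjusted p = 0.00109). It had 16.1, 557, 135.5 and 200.2 CPM in KPC muscle against 13.45 to 15.9 CPM in control muscle, the lowest KPC value being that of animal 141. The endosomal ferrireductase Steap3 (-1.72, edgeR adjusted p = 0.00195) and the ferric reductase Cybrd1 (-1.83, 0.00241) fell. Of the 11 genes 8 were higher and 1 lower in KPC+GnP against KPC muscle, with log2 changes of -3.89 for Slc39a14, 1.99 for Cybrd1 and 1.77 for Steap3 (edgeR adjusted p = 0.00113, 0.00148 and 0.00164). Without animal 141 the counts were 9 lower and 1 higher in KPC against control muscle, where 30.4% and 31.5% of all genes were, and in KPC+GnP against KPC muscle 8 higher and 1 lower.

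Most listed genes that control the IRPs and NCOA4, and most of the lysosomal route for ferritin, were higher in KPC muscle. Of 12 controllers 8 were higher and none lower, with a median log2 change of 0.51, where 27.5% of all genes were higher and 22.1% lower. Cul1, a scaffold of many ubiquitin ligases, rose by 1.18 (edgeR adjusted p = 0.000809). Fbxl5, the subunit that directs such a ligase to IRP2, did not pass (0.05, 0.746). Tax1bp1, an autophagy receptor that acts with NCOA4, rose by 1.32 (0.00117), and Nfe2l2, a transcription factor known to induce ferritin genes, by 1.32 (0.00137). Zfp36, whose product degrades Tfrc mRNA, rose by 1.87 (0.001479), and Bach1, a haem-sensing repressor of ferritin genes, by 1.70 (0.001505). Of 15 genes of the ferritin and lysosome route 12 were higher and none lower, with a median of 0.76. Map1lc3b and Gabarap, which coat the autophagosome, rose by 1.58 and 0.74 (edgeR adjusted p = 0.00044 and 0.00056), and the cargo receptor Sqstm1 by 1.67 (0.00067). These genes serve autophagy in general and not ferritin alone. Of the 12 and the 15 genes, 8 and 13 were lower and none higher in KPC+GnP against KPC muscle, where 26.7% of all genes were lower and 23.1% higher. The smallest p-values there were those of Atg9a (-0.59), Skp1a (-0.60) and Cul1 (-1.05) among the controllers and of Map1lc3b (-1.60), Gabarap (-0.76) and Sqstm1 (-1.76) on the route to the lysosome. Without animal 141 the counts in KPC against control muscle were 9 of 12 and 12 of 15 higher, and in KPC+GnP against KPC muscle 8 of 12 and 13 of 15 lower. Of all genes 31.5% were then higher in the first comparison and 31.4% lower in the second.

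Genes that use iron moved in both directions in KPC muscle, as did all genes tested, of which 27.5% were higher and 22.1% lower. Of 10 chaperone and mitochondrial entry genes 3 rose and 3 fell (median -0.10), and of the mitochondrial iron importers Slc25a28 (mitoferrin 2) rose by 1.93 (edgeR adjusted p = 0.000475) while Slc25a37 (mitoferrin 1) fell by 0.71 (0.00405). The iron chaperone Pcbp2 rose by 0.35 (0.0051). In haem synthesis and breakdown 4 of 17 rose and 2 fell (median -0.11), led by the porphyrin transporter Abcb6 (0.51), the haem transporter Slc48a1 (0.64) and the mitochondrial transporter Abcb10 (-0.51). In iron-sulphur cluster assembly 5 of 19 rose and 4 fell (median 0.06), led by Nubp2 (0.70), Glrx5 (-0.50) and Fdx1 (-0.52). Of 10 genes of export and systemic control 1 rose and 3 fell (median -0.54), with Bmp2 at -1.27, Smad6 at -0.78 and Smad7 at 0.76. Of 5 other transcripts listed for an IRE, Alas2 rose (1.22) and Cdc42bpa fell (-0.33). Abcb6 was lower in KPC+GnP than in KPC muscle (-0.70), as were Slc48a1 (-0.75), Nubp2 (-0.87) and Slc25a28 (-1.74), while Bola3 (0.62), Slc25a37 (0.77), Abcb10 (0.44), Bmp2 (1.61), Id1 (0.81), Cdc14a (1.60) and Cdc42bpa (0.40) were higher and Smad7 (-0.75) was lower. Without animal 141, 4 haem genes were higher and 8 lower in KPC against control muscle (median -0.22), so the balance of that list rests on that library, and 6 were higher and 3 lower in KPC+GnP against KPC muscle, against 2 and 2 with it. The other counts in KPC against control muscle were then 3 higher and 3 lower for chaperones, 5 and 5 for iron-sulphur clusters, 1 and 4 for export, and 1 and 2 for the IRE transcripts. In KPC+GnP against KPC muscle they were 3 and 4, 4 and 6, 4 and 1, and 2 and 0, against 2 and 4, 3 and 6, 2 and 1, and 2 and 0 with that library. Without it 31.5% of all genes were higher and 30.4% lower in KPC against control muscle. In KPC+GnP against KPC muscle 31.0% were then higher and 31.4% lower, against 23.1% and 26.7% with it. No gene of any of these lists passed in KPC+GnP against control muscle, where no gene passed at all.

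In heart, genes around the members passed in some lists and none did in others. Of all genes tested 9.34% passed in KPC against control heart (4.95% higher, 4.38% lower). Haem oxygenase 1 (Hmox1), which frees iron from haem, rose by 2.46 in KPC against control heart (SE 0.47, edgeR adjusted p = 0.0165), with 28.9, 97.7, 33.7 and 15.2 CPM in KPC heart against 5.95 to 9.98 CPM in control heart. Alas1, the first enzyme of haem synthesis, fell by 1.24 (0.0222) and Abcb10 by 0.73 (0.0342), and in all 2 of 17 haem genes rose and 3 fell, where 4.95% of all genes tested were higher and 4.38% lower. The ferroxidase Cp rose by 0.83 (0.0199) and Id1, a target of BMP signalling, by 0.67 (0.0179). Bola2 (0.87) and Slc25a28 (0.60) rose among 10 chaperone genes, Zfp36 (2.11), whose product degrades Tfrc mRNA, and Bach1 (0.54), a haem-sensing repressor of ferritin genes, among 12 controllers, and Gabarapl1 (0.68), Map1lc3b (0.62) and Ctsl (0.76) among 15 genes of the lysosomal route. Of 11 import genes none passed, 0 of 19 passed in iron-sulphur cluster assembly and 0 of 5 among the IRE transcripts. KPC muscle also had higher Hmox1 than control muscle (1.59, edgeR adjusted p = 0.0199), as well as higher Zfp36 and Bach1. Cp, Id1 and Bola2 did not pass in that comparison. In KPC+GnP against KPC heart Bach1 (-0.58, edgeR adjusted p = 0.049) was the 1 gene of all these lists that passed, and in KPC+GnP against control heart Id1 was (0.61, 0.0465). Of all genes tested 1.55% passed in the first comparison and 1.23% in the second. Without animal 141, when 13.6% of all genes were higher and 11.7% lower in KPC against control heart, 4 of 11 import genes were higher and 0 lower. The counts were then 3 and 2 of 10 chaperones, 2 and 1 of 10 export genes, 6 and 1 of 12 controllers, 4 and 4 of 17 haem genes, 1 and 2 of 19 iron-sulphur genes, 1 and 0 of 5 IRE transcripts and 7 and 0 of 15 genes of the lysosomal route. In KPC+GnP against KPC heart 0 were higher and 2 import, 1 chaperone, 1 export, 2 controller, 1 haem and 2 lysosomal genes were lower without animal 141, where 4.1% of all genes were higher and 4.4% lower.

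Single genes of these lists differed between the tissues in the joint fit of all libraries, when the difference itself was tested, but none did with the animal as a replicate block in 16 libraries, nor in those libraries without the block. For KPC against control, 7 of 11 import genes had a lower and 1 a higher change in muscle than in heart. Their median difference was -1.45, against -0.13 for all genes, of which 12.4% had a higher and 13.4% a lower change in muscle. Slc39a14 differed by 3.56 (edgeR adjusted p = 0.00244), the metalloreductase Steap4 by -1.52 (0.00294) and Scara5, a ferritin receptor, by -1.33 (0.00483). Of 12 controllers 5 had a higher change in muscle and none a lower one, with Cul1 at 1.01, Tax1bp1 at 0.89 and Atg9a at 0.65. Of 15 genes of the lysosomal route 6 had a higher change and none a lower one, with Rb1cc1 at 0.80, Sqstm1 at 1.04 and Map1lc3b at 0.88. For KPC+GnP against KPC, 5 of the 11 import genes had a higher and 1 a lower change in muscle. Of the controllers 1 had a higher and 5 a lower one, and 7 genes of the lysosomal route had a lower one. Of all genes, 12.5% had a higher and 13.2% a lower change there. Of the 12 macrophage markers 10 had a lower change in muscle than in heart for KPC against control (median -2.35) and 10 a higher one for KPC+GnP against KPC (median 2.05), and their part in the differences of the lists was not tested. Without animal 141 in both tissues, 1 import gene had a higher and 8 a lower change for KPC against control, 7 controllers a higher and 2 a lower one, and 7 of the lysosomal route a higher one, where 43.3% of all genes differed.

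Genes whose pattern was most like that of a member were found by the root mean square difference of log2 CPM over all 24 libraries, each gene centred within its tissue, among 12390 genes tested in both tissues. For Tfrc these were Itgb6 (0.39), Wnt5a (0.47) and Mdga1 (0.49), where the median over all genes was 1.44. Among the genes closest to Fth1 were the ribosomal protein genes Rpl29 (0.14) and Rpl23 (0.145), and Ftl1 was closest to Rpl3 (0.19), Eef1a1 (0.21) and Smap1 (0.25). Smap1 was also the closest gene to Ncoa4 (0.19), before Dcaf12 (0.22) and Npc2 (0.23). Slc40a1 was closest to Patl1, Baz1b and Slc25a46 (each 0.16) and Slc11a2 to Copg2 (0.12), Ulk2 (0.14) and Nek9 (0.15). For Ireb2 they included Dnajc13 (0.08) and Prpf8 (0.08), and for Aco1 they were Ppp2r5a (0.12), Agpat6 (0.13) and Slc25a51 (0.15).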

How the data were processed

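RNA of skeletal muscle and heart was sequenced in 24 libraries of 16 mice. The submitters' processing notes name STAR 2.5 and FastQC 0.11.5, further edgeR 3.12.1 and the featureCounts program in Subread 1.5.1, with mm10 (GRCm38) as the build. What each program did, which annotation served and whether counting used strand is not stated there. Raw read counts and log2 FPKM, both per gene, were deposited by the authors in separate tables for muscle and heart, each normalized on its own. Columns were matched to samples by title, and the muscle count column of animal 141 carries a final digit that its title lacks. The depth per library and its range open the account of the libraries above.

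Genes passed filterByExpr of edgeR 4.0.16 (R 4.3.3) with a minimum count of 10 and a minimum total of 15. Counts were scaled by TMM and fitted by group with the quasi-likelihood test, over the 12 libraries of a tissue or, between tissues, over all 24. P-values were adjusted by Benjamini-Hochberg over all genes tested, with a threshold of 0.05 and no minimum fold. SE is the log2 fold change divided by the square root of its F value. These edgeR fits of muscle, of heart and of both tissues were tested on simulated counts. The alternatives named below were not. CPM uses TMM library sizes, and log2 CPM a prior count of 2. The alternatives were RLE scaling, library totals, no filter, DESeq2 1.42.0, limma 3.58.1 on the deposited log2 FPKM, only the groups compared, and leaving out each library. Titles carry animal numbers, which pair muscle and heart of 8 animals, so the fits between tissues were repeated with the animal as a replicate block. Within a tissue the groups hold different animals.

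The members and gene lists were chosen with earlier results of these data known. Named beside the members were, from each list and comparison, up to 3 genes with the smallest p among those that passed, and for likeness the 3 nearest genes, of which some are not reported here. Annotation and UTRs came from GENCODE on GRCm38.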

Additional observations from a re-analysis of the deposited data

Results flagged for a closer look

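Ftl1 in KPC heart had 1 library far below the other 3, at 256 CPM. It came from animal 141. Tfrc in KPC muscle had 1 library far above the other 3, at 84.1 CPM, and this too came from animal 141. On the log2 CPM scale, these were the 2 of 48 groups of 4 libraries in which 1 library's gap to its nearest neighbour exceeded Dixon's 95% limit of 0.829 of the group's range, and chance marks about 1 group in 20.

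The change in KPC against control, which covers tumour and vehicle together, differed between muscle and heart for Fth1, by a log2 change of -0.60, and for Slc40a1, by 0.84. The response to treatment differed for Fth1, by 0.56. Each was a test of the difference itself, and none of the 3 passed with the animal as a replicate block, in 16 libraries.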

How the results depend on the processing

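Calls in heart moved with the test used, and the cause was not tested. For KPC against control heart (3 members and 1293 genes called), DESeq2 called 2491 genes, and the fit of the groups compared alone called 0 members and 229 genes. For KPC+GnP against KPC heart (1 and 214), DESeq2 called 2 members and 1163 genes, limma 0 and 88, and the groups alone 0 and 3. For KPC+GnP against control heart (0 and 170), library totals called 374 genes, DESeq2 1 member and 1056 genes, limma 86 genes, and the groups alone 1 member and 918 genes. Between tissues, limma called 1 member for KPC against control (2 called), and DESeq2 2 for KPC+GnP against KPC (1 called). With the animal as a replicate block, 0 members and 1 gene were called for KPC against control and 0 members and 25 genes for KPC+GnP against KPC. The same 16 libraries without the block gave 0 members each and 127 and 129 genes. The paired animals, animal 141 among them, differ from all animals in number and in the make-up of the groups. What lowered the counts was not tested. Without animal 141 in both tissues, 4 members were called in each, with 6291 and 6054 genes.

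Leaving out 1 library gave 3 to 7 members and 5137 to 7993 genes for KPC against control muscle, 2 to 7 and 5169 to 8056 for KPC+GnP against KPC muscle, and 0 to 0 and 0 to 0 for KPC+GnP against control muscle. It gave 0 to 5 members and 104 to 3554 genes for KPC against control heart, 0 to 2 and 0 to 1192 for KPC+GnP against KPC heart, and 0 to 1 and 1 to 612 for KPC+GnP against control heart. Between tissues it gave 1 to 4 members and 2677 to 6291 genes, and 0 to 4 and 2867 to 6054 (the highest counts without animal 141 in both tissues), and for muscle against heart in controls 5 to 6 and 7904 to 8343.

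The following log2 changes turned sign, none of them past the threshold after the turn. Library totals turned Fth1 (-0.2112) and Ireb2 (-0.3159) between control tissues, and also Ncoa4 (0.0599) for KPC+GnP against KPC muscle, Fth1 (0.0479) for KPC+GnP against control muscle, Ireb2 (0.0192) for KPC against control heart, and Fth1 (0.13) and Slc40a1 (0.0122) for KPC+GnP against control heart. Limma turned Aco1 (-0.0068) for KPC+GnP against control muscle. Between tissues Aco1 for KPC against control stood at 0.0029 (RLE), 0.0013 (DESeq2), 0.0597 (replicate block) and 0.069 (16 libraries), and Slc11a2 for KPC+GnP against KPC at -0.0099 (RLE), -0.0102 (DESeq2) and -0.0042 (limma). Without 1 library, log2 changes for KPC+GnP against control muscle ran over -0.3193 to 0.0051 (Ftl1), -0.0053 to 0.109 (Ireb2) and -0.0384 to 0.0447 (Aco1). In heart they ran over -0.0971 to 0.029 (Fth1, KPC+GnP against control) and, for KPC+GnP against KPC, over -0.2754 to 0.082 (Ftl1), -0.0773 to 0.0228 (Ireb2) and -0.3118 to 0.3781 (Ncoa4). Between tissues they ran over -0.1708 to 0.0268 (Aco1, KPC against control, the lowest value without animal 141 in both tissues), and over -0.1056 to 0.1146 (Slc11a2) and -0.5238 to 0.1652 (Ncoa4) for KPC+GnP against KPC. Limma was not run for muscle against heart in controls, since the log2 FPKM tables were normalized separately. No paired analysis was possible within a tissue because the groups hold different animals. Each group had 4 animals of 1 experiment, and several calls with an adjusted p near 0.05 were lost without single libraries.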
